A study of Arabidopsis thaliana with 4 samples.

Results

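The genes described are 10 WRKY transcription factor genes of Arabidopsis thaliana from groups I and II of the family, of 30361 gene loci measured on each array. They were chosen by locus code: WRKY18, WRKY40 and WRKY60 of subgroup IIa, WRKY25, WRKY26 and WRKY33 of group I, WRKY6 of IIb, WRKY75 of IIc, and WRKY11 and WRKY15 of IId. Each had 1 row in the deposited table, and the reference gave each locus the WRKY name used here. The plants were wild-type Columbia-0, the common laboratory accession, without any transgene named in the labels. Of the 4 one-colour NimbleGen arrays, 3 held RNA of plants exposed for 30 min to 10 µM (E)-2-hexenal, a reactive leaf aldehyde, given as vapour from a solution in acetonitrile (MeCN). The other array, the control, held RNA of plants kept 30 min with acetonitrile. All plants were grown at 23 °C with 14 h of light and 10 h of dark, and all exposures were at 25 °C. Each RNA sample was a pool of 6 plants or more, the plants' age and the tissue taken are not stated in the labels, and a single control leaves the spread between control samples unmeasured. The study asked which stress-related genes such leaf volatiles induce.

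WRKY proteins are plant transcription factors named after a conserved peptide in their DNA-binding domain, and they bind the W-box element in the promoters of many defence and stress genes. Group I proteins carry a pair of WRKY domains and group II proteins a single one, with the subgroups told apart by the sequence around it. Many WRKY genes respond within minutes to wounding, pathogens or oxidative stress, and many WRKY promoters hold W-boxes themselves, so that members of the family act on each other's genes. MAP kinases phosphorylate several of the proteins, and small VQ-motif proteins bind to them.

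After 30 min of hexenal, WRKY40, WRKY15 and WRKY33 rose, by 6.13-fold, 5.27-fold and 4.22-fold. The other 7 genes were not called. A locus was called where limma's adjusted p was under 0.05 and its mean differed at least 2-fold from the control. Thus 3 of the 10 genes were called higher, and 0.866% of all loci were called higher by the same rule. None of the 10 was called lower by limma, where 0.0329% of all loci were, although WRKY60 was lower at an unadjusted p under 0.05. Calls in either direction were made at 0.899% of all loci. At an unadjusted p under 0.05 lay 6 of the 10 genes against 8.75% of all loci, 5 of them higher (5.83% of loci) and 1 lower (2.91%). The 10 genes were chosen with earlier results of these data known, so these shares are descriptive and test nothing. In RNA from whole pools of plants, a change in the RNA per cell and a change in the share of cells that hold it cannot be told apart.

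The median deposited intensity was 936 to 982 over the 4 arrays, and no locus was listed below 41.3. The 6 leaf markers, among them RBCS1A, RCA and CA1, had a summed level of 17.89 to 17.95 on the log2 scale on the hexenal arrays and 17.99 on the control. The 6 root markers summed to 13.09 to 13.21 and to 13.29, with 2 of 6 in the dimmest 25% of loci on the control. Most of that sum came from SCR and GL2, at log2 levels of 12.29 and 12.08 on the control. COBL9, EXPA7, IRT1 and MYB36 lay between 6.59 and 7.95 there, so the sum is no measure of root tissue. All 5 flower markers lay in those dimmest 25%, and their sum was 9.56 in hexenal replicate 1, 8.39 and 8.42 in replicates 2 and 3, and 8.51 in the control. No marker was listed at 0. No flower marker was called, and whether replicate 1 held more flowering tissue, or what part that plays in its values, was not tested. WRKY18 and WRKY60 were the only members of the 10 with their highest hexenal value in replicate 1.

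**Figure D1:**
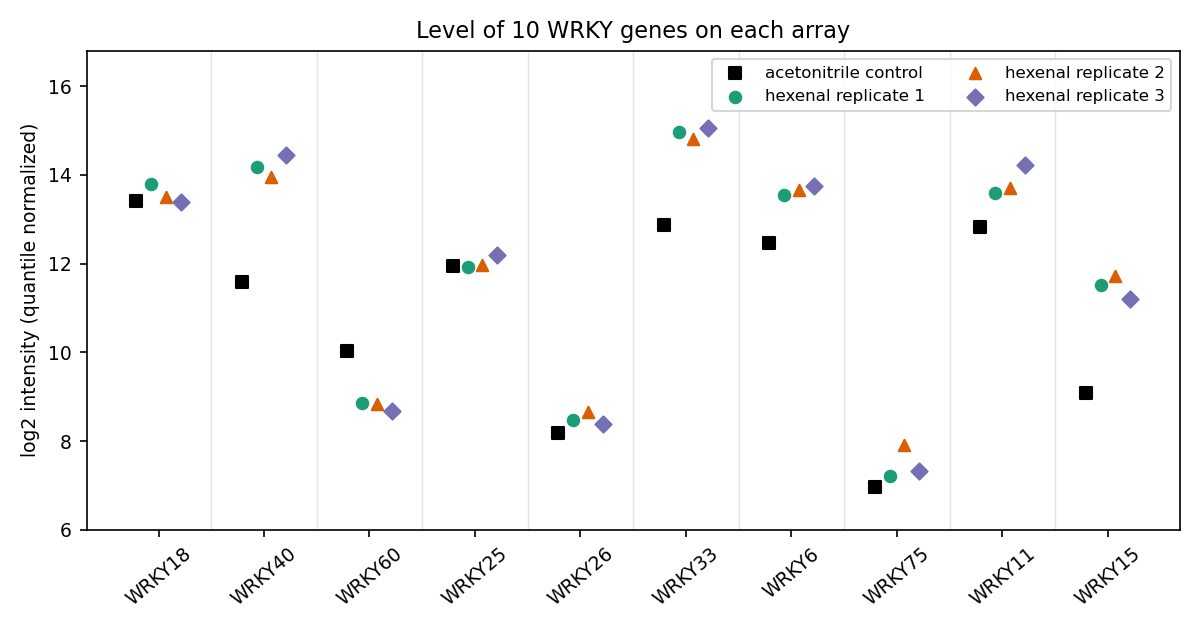
Quantile-normalized log2 intensity (vertical axis) of the 10 WRKY genes (horizontal axis) on the control array (squares) and on hexenal replicates 1, 2 and 3 (circles, triangles, diamonds); levels can be compared within a gene only. The hexenal points of WRKY40, WRKY33 and WRKY15 lie at least 1.94 above their control, those of WRKY60 lie below it, and those of WRKY18 and WRKY25 lie on both sides.

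In subgroup IIa, WRKY40 rose, and WRKY18 and WRKY60 were not called. Their proteins bind each other and act as partly redundant repressors in defence and in abscisate signalling. The deposited intensity of WRKY40 (AT1G80840) was 3008 on the control and 18519, 16027 and 22324 on hexenal replicates 1, 2 and 3. All 3 hexenal values stood far above the control, the highest in replicate 3. On the quantile-normalized log2 scale the level went from 11.58 to 14.19 ± 0.25 (SD, n = 3), a log2 fold change of 2.62 ± 0.29 (SE) with an adjusted p of 0.0294 by limma with Benjamini-Hochberg adjustment.

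WRKY18 (AT4G31800) was already bright on the control, with an intensity of 10875 against 14268, 11742 and 10704 under hexenal. The control lay inside the range of the hexenal arrays. The log2 fold change was 0.14 ± 0.27 (SE), and its 95% interval ran from -0.54 to 0.82 (adjusted p = 0.909 by limma), so that neither a small rise nor a small fall could be told from no change. With 1 hexenal array left out it was 0.03 without replicate 1 and 0.23 without replicate 3.

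WRKY60 (AT2G25000), whose gene is known as a direct target of the WRKY18 and WRKY40 proteins in abscisate-treated plants, had an intensity of 1028 on the control and 460, 455 and 415 on the hexenal arrays. The 3 hexenal values lay close together and all below the control. The log2 level was 10.03 in the control and 8.79 ± 0.09 (SD, n = 3) under hexenal, a difference of -1.24 ± 0.24 (SE) that limma did not call (adjusted p = 0.141, unadjusted p = 0.00273). All 3 hexenal arrays also lay below the control at 32.4% of all loci, and 2.95% of loci had a mean at least 2-fold lower.

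Because the 3 genes were read on the same arrays, their changes can be set against each other array by array. The change of WRKY40 exceeded that of WRKY18 by 2.23, 2.29 and 2.90 on the log2 scale in hexenal replicates 1, 2 and 3. It exceeded that of WRKY60 by 3.78, 3.57 and 4.22, a mean of 3.85 ± 0.33 (SD, n = 3). The change of WRKY18 exceeded that of WRKY60 by 1.38 ± 0.15 (SD, n = 3). Each of these differences was several times its spread between hexenal arrays, and all of them share the single control, whose own error was not measured and does not average out over the replicates.

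**Figure D2:**
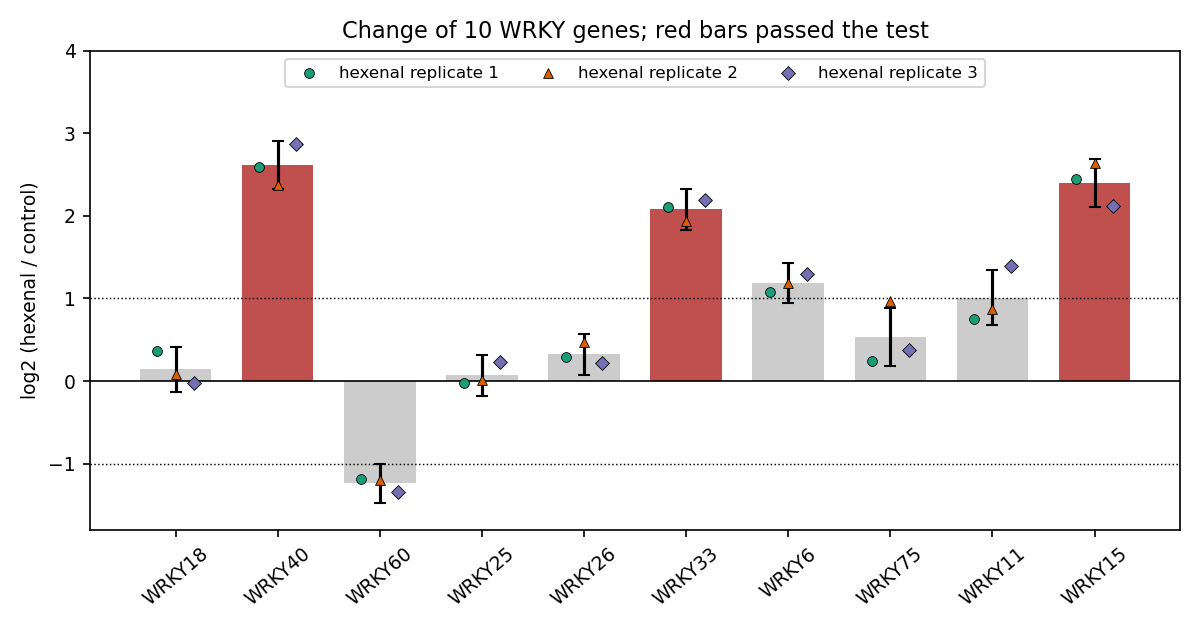
Log2 ratio of hexenal to control (vertical axis) for the 10 WRKY genes; bars give the mean of 3 hexenal arrays, whiskers its standard error from limma, symbols the single arrays, and dotted lines a 2-fold change. Red bars mark the called genes WRKY40 (2.62), WRKY33 (2.08) and WRKY15 (2.40); the bar of WRKY60 reaches -1.24.

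Of the group I genes, WRKY33 alone was called. Its protein is phosphorylated by the MAP kinases MPK3 and MPK6 and activates genes of the antimicrobial compound camalexin. WRKY33 (AT2G38470) had an intensity of 7393 on the control and 31718, 28373 and 33276 under hexenal. The hexenal arrays lay within 0.25 of each other on the log2 scale and well above the control. The level rose from 12.86 to 14.94 ± 0.13 (SD, n = 3), by 2.08 ± 0.25 (SE; adjusted p = 0.0365 by limma). The brightest loci of the 4 arrays stood at 54755 to 57290, and differences near the top of the scale can be compressed. The call was lost without hexenal replicate 3 (adjusted p = 0.0509), with a log2 fold change of 2.02.

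WRKY25 (AT2G30250), a paralogue of WRKY33 that also takes part in heat and salt tolerance, had an intensity of 3919 on the control and 3962, 4045 and 4635 under hexenal. On the normalized scale the control lay between the hexenal arrays, 1 of which was below it. The log2 fold change was 0.07 ± 0.25 (SE), with a 95% interval of -0.55 to 0.70 (adjusted p = 0.958 by limma). That interval does not reach the change of WRKY33.

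WRKY26 (AT5G07100), the third of these genes and known to act with the other two in heat tolerance, was dim, at 299.7 on the control and 342, 397 and 341 under hexenal. All 3 hexenal arrays lay slightly above the control. The difference was 0.33 ± 0.25 (SE) on the log2 scale, with a 95% interval of -0.30 to 0.95 (adjusted p = 0.727 by limma). Array by array, the change of WRKY33 exceeded that of WRKY25 by 2.13, 1.93 and 1.96, and that of WRKY26 by 1.82, 1.47 and 1.97.

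In subgroup IId, WRKY15 was called and WRKY11 was not. Proteins of this subgroup bind calmodulin, the calcium sensor, and WRKY15 is known for its part in growth under salt and oxidative stress. The intensity of WRKY15 (AT2G23320) was 541 on the control and 2974, 3405 and 2349 on hexenal replicates 1, 2 and 3. Every hexenal array was more than 4-fold above the control, with replicate 3 the lowest, where it was the highest for WRKY40 and WRKY33. The log2 level rose from 9.08 to 11.48 ± 0.26 (SD, n = 3), by 2.40 ± 0.29 (SE; adjusted p = 0.0395 by limma).

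WRKY11 (AT4G31550), which together with WRKY17 restrains basal resistance to bacteria, had an intensity of 7206 on the control and 12309, 13436 and 19174 under hexenal. All hexenal arrays lay above the control, and replicate 3, at a log2 level of 14.23, stood above replicates 1 and 2 at 13.58 and 13.70. The difference was 1.01 ± 0.33 (SE), with a 95% interval of 0.17 to 1.84, and was not called (adjusted p = 0.454, unadjusted p = 0.0263, by limma). The change of WRKY15 exceeded that of WRKY11 by 1.69 and 1.77 in replicates 1 and 2 and by 0.72 in replicate 3. WRKY17, the closest relative of WRKY11, was at 0.02 ± 0.23 (SE).

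WRKY6 (AT1G62300) of subgroup IIb, a factor of leaf senescence and defence that also represses the phosphate exporter gene PHO1, had an intensity of 5566 on the control. Under hexenal it had 12011, 13082 and 13844. The hexenal arrays lay close together, all about 2-fold above the control. The difference was 1.19 ± 0.24 (SE), with a 95% interval of 0.58 to 1.80, and was not called (adjusted p = 0.164 by limma). It passed when the variance prior was fitted with a trend and robustly (adjusted p = 0.0139).

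WRKY75 (AT5G13080) of subgroup IIc, known from phosphate starvation and senescence had an intensity of 130 on the control, in the dimmest 25% of loci, and 137, 237 and 168 under hexenal. Replicate 2 stood apart from the others, and all 3 lay above the control. The difference of 0.53 ± 0.35 (SE) had a 95% interval of -0.35 to 1.42 (adjusted p = 0.696 by limma), and at such intensities it may also hold background.

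In order of change the genes were WRKY40, WRKY15, WRKY33, WRKY6, WRKY11, WRKY75, WRKY26, WRKY18, WRKY25 and WRKY60. Neighbours in that order overlapped in their single-array changes except at 2 steps. WRKY33, with at least 1.94 on every array, stood clear of WRKY6 with at most 1.30, and WRKY25, with at least -0.02, stood clear of WRKY60 with at most -1.18. Of the 10 genes 7 lay above the control on all 3 hexenal arrays, against 26.1% of all loci, and 5 had a mean at least 2-fold higher, against 4.27%. The median log2 fold change of the 10 was 0.77, and that of all loci was -0.03. The highest hexenal value lay in replicate 3 for 5 genes, in replicate 2 for 3 and in replicate 1 for 2.

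**Figure D3:**
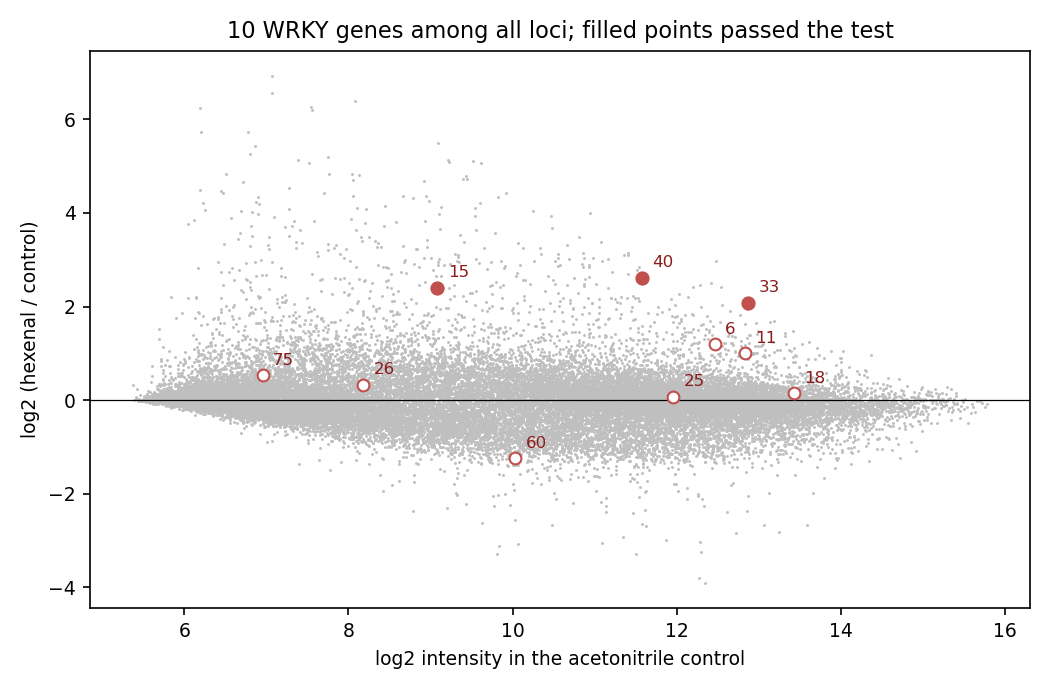
Log2 ratio of hexenal to control (vertical axis) against the control's log2 intensity (horizontal axis) for all 30361 loci (grey points) and the 10 WRKY genes (red circles with their WRKY number, filled where called). WRKY15 (control level 9.08), WRKY40 (11.58) and WRKY33 (12.86) rose from different parts of the intensity scale, and WRKY75 starts at 6.95 among the dim loci.

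The calls of all 3 genes were lost without hexenal replicate 2, together with every other call on the array, so the loss was not particular to these genes. That replicate was the lowest hexenal array for WRKY40 and WRKY33 and the highest for WRKY15. Without it limma called none of the 10 and no locus at all, with 5 of the 10 and 1546 loci at an unadjusted p under 0.05. The log2 fold changes were then 2.73 for WRKY40, 2.15 for WRKY33 and 2.28 for WRKY15, with adjusted p values of 0.159, 0.214 and 0.215.

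The rest of the family was described next. By its names in the reference the array held 72 WRKY loci, 62 of them besides the 10. Of these 62, 3 were called higher and 0 lower by limma, against 0.866% and 0.0329% of all loci. At an unadjusted p under 0.05, 7 of the 62 were higher and 2 lower, against 5.83% and 2.91% of all loci. Their median log2 fold change was 0.03, and 18 lay above and 16 below the control on all 3 hexenal arrays, against 26.1% and 32.4% of all loci. The shares lower at an unadjusted p, above and below are near those of all loci. All 3 called genes belong to group III, whose proteins differ from groups I and II in their zinc finger.

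Among 13 group III genes, WRKY30 rose by 3.57 ± 0.45 (SE), WRKY46 by 3.38 ± 0.41 and WRKY53 by 3.13 ± 0.31, with adjusted p values of 0.0418, 0.0376 and 0.0237 by limma. WRKY46 and WRKY53 are regulators of defence and senescence. WRKY30 started from a control level of 6.68, in the dimmest 25% of loci on the control. It was not called in the values as deposited or with 16 added before the log. The group III median was 0.29, and 8 of the 13 had a control level in the dimmest 25%, against WRKY75 alone of the 10 genes of groups I and II. Whether the groups differ was not tested.

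Of the 49 WRKY genes outside both sets none was called by limma, against 0.866% of all loci called higher and 0.0329% lower. At an unadjusted p under 0.05, 2 were higher and 2 lower, against 5.83% and 2.91% of all loci. The mean was at least 2-fold higher in 2 and at least 2-fold lower in 1, against 4.27% and 2.95%. These counts are near the shares of all loci. The 2 higher genes are WRKY51 (2.78 ± 0.44 SE, adjusted p = 0.0832) and WRKY42 (1.51 ± 0.24, adjusted p = 0.0853). Both were dim in the control, and both were singled out after their values were seen. The lower one, singled out likewise, is WRKY29 at -1.23 ± 0.38 (SE; adjusted p = 0.419), below the control on all 3 hexenal arrays and close to WRKY60 in size. WRKY42 is a relative of WRKY6 in subgroup IIb, of whose 8 genes none was called and 2 were higher at an unadjusted p under 0.05. In subgroup IId, WRKY15 was the 1 called gene of 7, and WRKY21 lay at -0.60 ± 0.24 (SE).

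**Figure D4:**
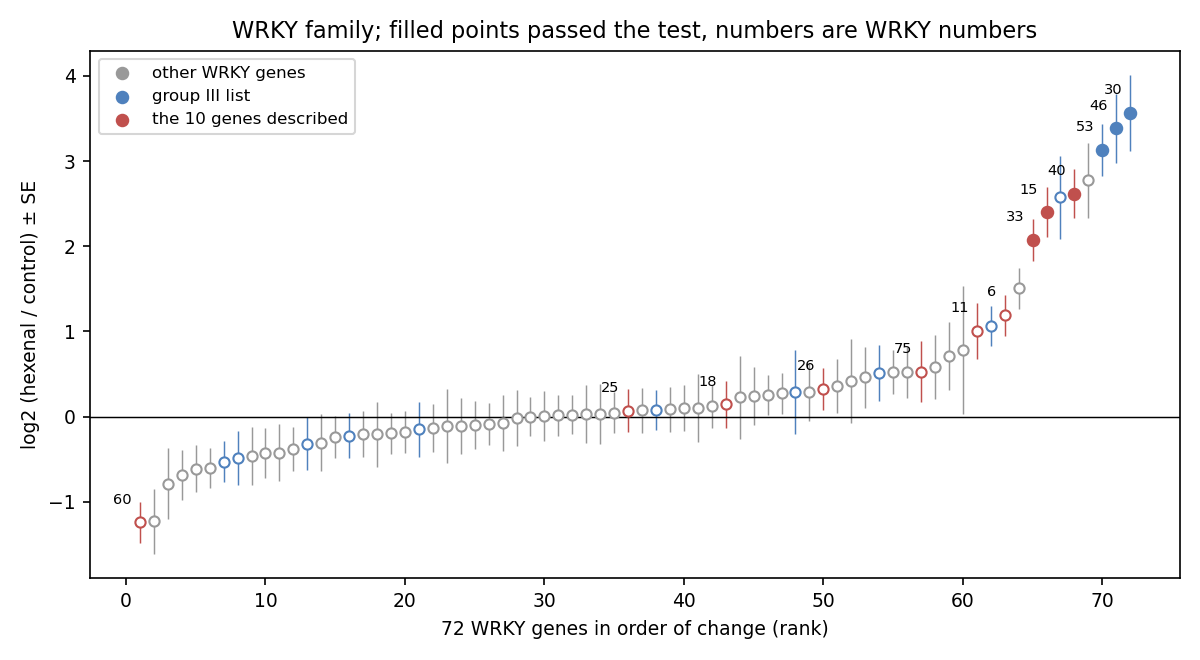
Log2 ratio of hexenal to control with its standard error (vertical axis) for the 72 WRKY genes in order of change (horizontal axis, rank); red marks the 10 genes of groups I and II, blue the 13 of group III, grey the other 49, and filled points were called. Of the 6 filled points 3 are red (WRKY33, WRKY15, WRKY40) and 3 blue (WRKY53, WRKY46, WRKY30), and WRKY60 at -1.24 lies at the low end beside WRKY29 at -1.23.

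Genes that act with or under these factors were read from 8 lists, of whose 39 loci 7 were called higher and 0 lower, against 0.866% and 0.0329% of all loci. The lists were chosen with earlier results of these data known, so their shares here and below are descriptive and test nothing. Upstream, 0 of 8 MAP kinase cascade genes were called by limma, with a list median of 0.82. MPK3, which phosphorylates WRKY33, had a log2 level of 13.52 on the control and of 14.41 or more on each hexenal array, a difference of 1.20 ± 0.31 (SE; adjusted p = 0.289). MKK9, a kinase upstream of MPK3 and MPK6, was at 1.69 ± 0.26 (adjusted p = 0.0783), and MPK6 was at -0.02 ± 0.26. At an unadjusted p under 0.05, 5 of these 8 genes were higher, against 5.83% of all loci.

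Of 3 VQ partner genes, SIB1, whose product binds WRKY33, rose by 3.10 ± 0.32 (SE; adjusted p = 0.0255 by limma). Its log2 level was 11.40 on the control and 14.33, 14.30 and 14.87 under hexenal, so that replicate 3 was again the highest. MKS1, which links WRKY25 and WRKY33 to the kinase MPK4, lay at 1.94 ± 0.27, just short of a call (adjusted p = 0.0551). SIB2, the paralogue of SIB1, was at 0.55 ± 0.27. Thus 1 of these 3 genes was called higher, against 0.866% of all loci. A further 2 loci of the list, left out because the reference does not give them the list's names, were AT1G78410, called at 4.24 ± 0.29 (SE; adjusted p = 0.0102), and AT1G28280 at 0.55 ± 0.38.

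Genes known as targets of the members were in different states. Of 7 camalexin and ACC synthase genes under WRKY33 0 were called by limma, against 0.899% of all loci in either direction. At an unadjusted p under 0.05 lay 1 of them, against 8.75% of all loci, and the list median was -0.13. PAD3, the enzyme of the last step of camalexin synthesis and a direct target of WRKY33, was at 9.15 on the control and 8.10, 9.41 and 8.73 under hexenal. Its control lay inside the hexenal range, and CYP71A13, an earlier step, was at -0.68 ± 0.35 (SE) from a dim control. ACS6, an ethylene synthesis gene, was at 1.95 ± 0.35 (adjusted p = 0.121).

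Of 7 defence genes linked to WRKY18 and WRKY40, SARD1, an activator of salicylate synthesis, rose by 3.29 ± 0.24 (SE; adjusted p = 0.0125 by limma), and PAD4, a partner of EDS1, rose by 2.18 ± 0.25 (adjusted p = 0.0323). The redox-responsive factor gene RRTF1 had log2 levels of 9.59 on the control and 13.43, 13.24 and 10.89 on hexenal replicates 1, 2 and 3. JAZ8, a jasmonate repressor gene, was at 6.63 on the control and 9.31, 9.03 and 6.41 under hexenal. In both genes replicate 3 was far below the other hexenal arrays, which was not so for WRKY40 or WRKY18, and neither gene was called. EDS1 was at 0.50 ± 0.26 (SE). The list median was 2.18, and 2 of the 7 genes were called higher, against 0.866% of all loci.

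Of 4 abscisate response genes under the subgroup IIa factors none was called by limma, against 0.899% of all loci in either direction. At an unadjusted p under 0.05 lay 1 of them, against 8.75% of all loci. ABI5 was at -0.13 ± 0.32 (SE) and ABI4 at -0.03 ± 0.58, both from controls in the dimmest 25% of loci, and ABF3 was at 0.72 ± 0.24. A further locus of the abscisate list, AT5G45870, was left out because the reference names it PYL12. It was at 0.56 ± 1.13 (SE) and was not called. PHO1, a target of WRKY6, was at -0.05 ± 0.44. The other locus listed under WRKY6, left out because the reference names it FRK1, was at -0.65 ± 0.36, and neither was called. Of 3 mitochondrial stress genes listed under WRKY40 none was called. AOX1A, an alternative oxidase, and BCS1 were at 1.74 ± 0.28 and 1.89 ± 0.32 (adjusted p = 0.0859 and 0.0972 by limma). NDB4 was at -0.06 ± 0.25 from a control in the dimmest 25% of loci. AT2G21640, left out because the reference does not give it the list's name, was at 0.24 ± 0.29.

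Of 6 heat response genes linked to WRKY25, WRKY26 and WRKY33 in heat tolerance, 4 were called higher and none lower. Over all loci 0.866% were called higher and 0.0329% lower. ZAT10, a zinc finger repressor listed under the symbol STZ, rose by 3.37 ± 0.24 (SE), MBF1C, a coactivator, by 3.09 ± 0.26, and HSP101, a disaggregase, by 2.97 ± 0.23 (adjusted p = 0.0113, 0.0170 and 0.0143 by limma). HSFA2, a heat shock factor, rose by 6.38 ± 0.26 (adjusted p = 0.00608). HSFB1 and HSFB2A were at 2.15 ± 0.29 and 1.74 ± 0.26, just short of a call (adjusted p = 0.0534 and 0.0685 by limma). All 6 had a mean at least 2-fold above the control, against 4.27% of all loci. Beside them WRKY33 changed by 2.08, WRKY25 by 0.07 and WRKY26 by 0.33.

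**Figure D5:**
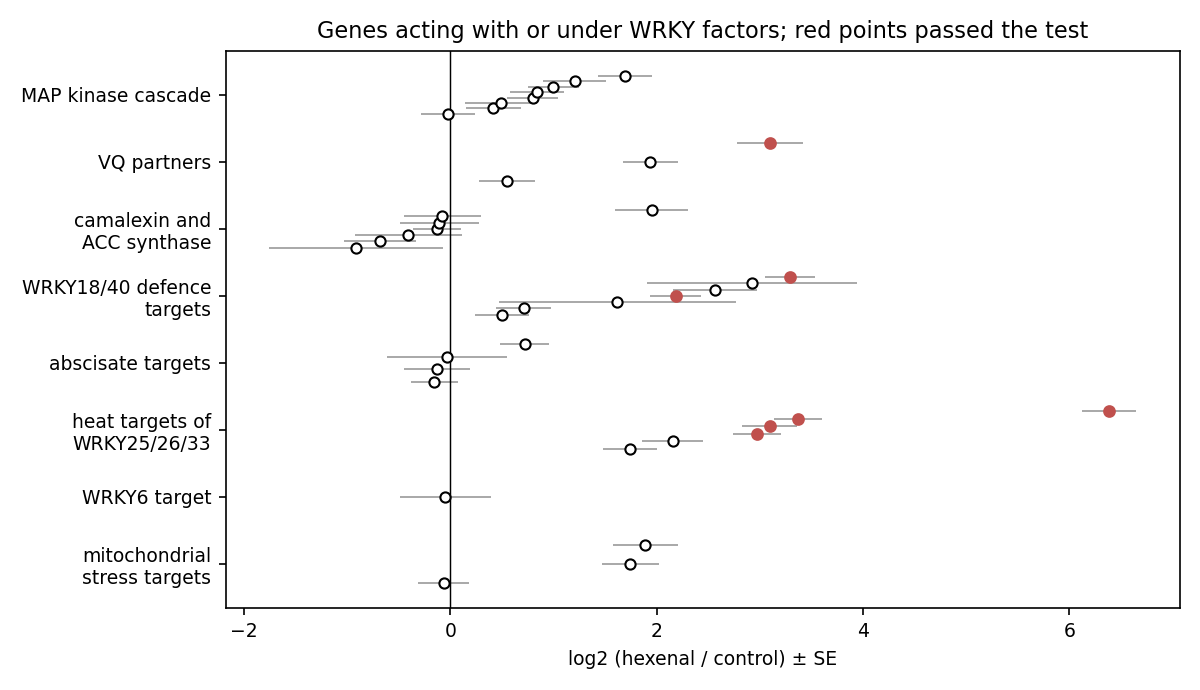
Log2 ratio of hexenal to control with its standard error (horizontal axis) for the 39 genes of 8 lists (vertical axis), 1 point per gene, red where called. The 7 red points are SIB1 among the VQ partners, PAD4 and SARD1 among the defence targets, and HSP101, MBF1C, ZAT10 and HSFA2 among the heat targets.

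The genes closest in pattern were found by the distance between their 3 hexenal-minus-control log2 differences and those of WRKY40 or WRKY33, over loci with a symbol. The 5 nearest to WRKY40 were DHAR2, a dehydroascorbate reductase gene (distance 0.13), NAC053 (0.27), the heat shock factor gene HSF A4A (0.30), an HSP70 gene at AT3G12580 (0.36) and the calmodulin-like CML23 (0.36). The last of them was not called. The 5 nearest to WRKY33 were the ethylene response factor gene ERF104 (0.16), which was not called, the zinc finger gene CZF1 (0.23), the defence gene NDR1 (0.24), MYB77 (0.25) and the heat shock factor gene AT-HSFB2B (0.25). Differences on 3 arrays from a shared control describe likeness in size and in array order only.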

How the data were processed

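Per the labels' protocols, RNA was reverse transcribed with an oligo-dT primer, labelled with Cy3 by random priming and hybridized to one-colour arrays. The deposited table gives a linear intensity for every locus on each array. How background, scaling, probe summary and detection were handled, and the genome build, is not stated in the sources used here, so no detection limit or coordinates are given. The precision is set by the small number of arrays. Lower quartiles of the arrays lay up to 0.20 apart on the log2 scale, above a tolerance of 0.1, so log2 values were quantile normalized.

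Hexenal was set against acetonitrile with limma 3.58.1 (R 4.3.3, lmFit and eBayes), with two-sided p values adjusted by Benjamini-Hochberg over all 30361 loci. Its 2 residual degrees of freedom come from the hexenal arrays, and the same variance is taken for the control. The fit was tested on simulated data. Names came from a RefSeq table of assembly TAIR10.1, which matched 29976 loci, and a family locus has WRKY and a number as symbol or synonym. Of 61 list loci 5 lacked the list's name there and were left out, 1 of them called (AT1G78410, on the list of VQ partner genes, 4.24 ± 0.29 SE). Named genes are the 10 members, other called WRKY genes, called list members with others by value, and the 5 nearest loci. Members and lists were chosen with earlier results of these data known. Alternatives were no further normalization, centring on the median, cyclic loess, a filter on the dimmest 25% of loci, a trended and robust prior, 16 added before the log, no fold threshold, and each hexenal replicate left out. The filter ranked loci by their mean over all 4 arrays, whereas the dimmest 25% in the descriptions above are ranked on the control. WRKY30 and WRKY51, dim on the control, therefore passed the filter. Probe sharing between similar genes was not tested, and no sequences were used here.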

Additional observations from a re-analysis of the deposited data

How the results depend on the processing

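The 3 members called higher stayed at 3 in the values as deposited, with median centring, with cyclic loess or with 16 added before the log. They also stayed at 3 with the dimmest 25% of loci left out, and were 4 with a trended and robust prior. Without a fold threshold there were 3 as well, but that setting has the same p values and can only keep or add calls. Leaving out a hexenal replicate gave 0 to 3. Over all loci 263 were called higher and 10 lower. A trended and robust prior gave 573 higher and 55 lower, and leaving out the dimmest 25% gave 18 lower. Leaving out a replicate gave 0 to 353 higher and 0 to 35 lower. Of the WRKY family 6 were called higher, 10 with the trended and robust prior and 0 to 8 with a replicate left out. The log2 fold change of WRKY25 turned to -0.00502 without hexenal replicate 3 and was at most 0.120 with another replicate left out, and the other 9 members kept their sign under each setting they could be given. WRKY75 has no value without the dimmest 25%, of which it is one. The causes were not tested, beyond the smaller number of loci or arrays that some settings use. No paired analysis was possible because the control is a single array with no replicate number in the labels. With 1 control, no setting can show how control plants vary.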
